A study of Mus musculus with 20 samples.

Results

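The 10 genes Pecam1, Cdh5, Emcn, Vwf, Kdr, Flt1, Tek, Nos3, Vegfa and Vegfb were followed as a readout of blood vessels and their growth signals in mouse fat. They were taken by symbol from the 25219 genes of the deposited table, and all 10 were listed and passed the filter on low counts in each comparison. The study deleted the α4 phosphatase-binding protein, encoded by Igbp1, from adipocytes and sequenced RNA of inguinal white fat (iWAT) and brown fat (BAT). There were 4 groups of 5 libraries, Control iWAT, Ai-α4KO iWAT, Control BAT and Ai-α4KO BAT, with 24023371 to 50384446 counts a library.

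All groups came from male mice on a mixed C57Bl/6 background, sampled 1 week after recombination. Both genotypes carried floxed α4 alleles and were given tamoxifen from 2 months of age, as 5 doses of 100 mg/kg within 6 days. Ai-α4KO mice also carried Adiponectin-CreERT2, a tamoxifen-inducible Cre driven by an adipocyte promoter, so the endothelial cells were not the targeted cells. Control mice lacked this transgene, and the labels name them WT. The labels state neither that the 5 libraries of a group came from separate animals nor that the same mice gave both tissues, and the p-values measure the spread between these libraries.

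Blood vessels are lined by endothelial cells, which hold together through junction proteins and display the receptors for vascular endothelial growth factors (VEGFs). VEGF-A, made by adipocytes among other cells, binds the receptors encoded by Kdr and Flt1, and signaling through Kdr promotes endothelial survival, permeability and sprouting. Fat is densely supplied with capillaries, and brown fat more so than white fat, since its heat production depends on oxygen and fuel delivery.

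The promoters shown are those of the VEGF ligands Vegfa and Vegfb, of their receptors Kdr and Flt1 and of the angiopoietin receptor Tek. All 5 genes fell in BAT, and all but Tek in iWAT. Emcn, neither a ligand nor a receptor of this group, also fell in BAT and is not shown. Of the 10 genes, 6 had an entry among the RefSeq promoters on GRCm38.p6, the assembly also named mm10 (Kdr, Flt1, Tek, Emcn, Vegfa and Vegfb). The 250 bases before the start are printed in the direction of transcription, with capitals for each GC box (the letters GGGCGG on either strand). For Vegfa the entry at the gene's outer start is shown.
Kdr: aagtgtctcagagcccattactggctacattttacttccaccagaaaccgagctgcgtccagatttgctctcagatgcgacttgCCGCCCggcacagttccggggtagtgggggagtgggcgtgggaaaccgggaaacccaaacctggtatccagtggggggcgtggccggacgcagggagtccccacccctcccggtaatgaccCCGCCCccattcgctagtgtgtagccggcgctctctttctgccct
Flt1: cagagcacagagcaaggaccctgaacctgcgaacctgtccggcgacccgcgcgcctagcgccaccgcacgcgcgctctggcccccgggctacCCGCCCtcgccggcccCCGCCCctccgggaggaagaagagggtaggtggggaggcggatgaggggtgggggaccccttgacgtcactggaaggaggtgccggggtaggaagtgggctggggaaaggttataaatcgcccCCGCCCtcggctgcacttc
Tek: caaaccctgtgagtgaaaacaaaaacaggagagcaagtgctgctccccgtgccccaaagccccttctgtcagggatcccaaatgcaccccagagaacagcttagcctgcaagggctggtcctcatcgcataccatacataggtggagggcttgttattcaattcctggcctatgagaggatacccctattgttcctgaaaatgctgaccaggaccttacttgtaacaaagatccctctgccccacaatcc
Vegfa: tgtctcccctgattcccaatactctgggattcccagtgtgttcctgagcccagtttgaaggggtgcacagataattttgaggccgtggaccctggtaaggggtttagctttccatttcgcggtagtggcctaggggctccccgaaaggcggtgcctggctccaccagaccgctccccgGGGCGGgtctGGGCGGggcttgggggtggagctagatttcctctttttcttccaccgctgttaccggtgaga
Vegfb: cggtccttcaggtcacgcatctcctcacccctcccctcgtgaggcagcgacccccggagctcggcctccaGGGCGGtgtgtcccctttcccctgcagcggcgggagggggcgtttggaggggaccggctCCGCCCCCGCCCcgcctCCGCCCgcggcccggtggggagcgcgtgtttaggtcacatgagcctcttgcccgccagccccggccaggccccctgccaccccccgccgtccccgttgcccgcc

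These stretches lie at chr5:75978456-75978705 on the minus strand (Kdr), chr5:147726012-147726261 on the minus strand (Flt1), chr4:94739039-94739288 on the plus strand (Tek), chr17:46032378-46032627 on the minus strand (Vegfa) and chr19:6987652-6987901 on the minus strand (Vegfb). A GC box occurred 2 times before Kdr, 3 times before Flt1, 2 times before Vegfa and 4 times before Vegfb, and these letters were not in the Tek window, while 32.7% of all 32851 RefSeq windows of this length held at least 1. The hypoxia response core, ACGTG or GCGTG on either strand, was present 2 times each before Kdr and Vegfb, 1 time before Flt1 and in neither the Tek nor the Vegfa window, against 38.6% of all windows. The second Vegfa entry, at chr17:46025164-46025413 on the minus strand and not shown, held 2 of these cores and 1 GC box. The Emcn window, also not shown, held 1 of these cores and 0 GC boxes. None of these matches overlapped a GC box. TATAAA was found before Flt1, as in 12.4% of all windows. These matches describe the letters and identify no site in use.

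The deletion was visible in the targeted gene. Levels are in CPM, counts put on 1 common scale of sequencing depth with edgeR's TMM factors over all 20 libraries. For Igbp1 the 5 Control iWAT libraries averaged 67.2 ± 7.01 CPM and the 5 Ai-α4KO iWAT libraries 10.8 ± 0.394 (SD; log2 fold change -2.65, standard error 0.094, adjusted p = 4.99e-08). In BAT it was 93.9 ± 7.29 CPM in Control and 17.0 ± 4.83 in Ai-α4KO libraries (log2 fold change -2.504, standard error 0.17, adjusted p = 2.20e-07). All adjusted p-values here come from the quasi-likelihood test of edgeR, corrected over all genes tested by the method of Benjamini and Hochberg. A gene is said to have risen or fallen at an adjusted p below 0.01. The tissues carried their markers: all 4 brown adipocyte markers (Ucp1, Cidea, Dio2 and Ppargc1a) were higher in Control BAT than in Control iWAT, against 16.4% of all genes. Markers of B cells summed to 431 CPM in Control iWAT library 1 and 171 in library 4, against at most 11.7 in every other library, and values for iWAT are therefore also given without these 2 libraries.

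Endothelial and VEGF genes were lower after the deletion in both depots. In iWAT 7 of the 10 genes fell (Pecam1, Cdh5, Kdr, Flt1, Nos3, Vegfa and Vegfb), against 18.8% of the 14604 genes tested, and 6 of them fell by at least 2-fold, against 10.7%. None of the 10 rose, where 21.5% of all genes rose and 11.3% rose by at least 2-fold. Their median log2 fold change was -1.10, and that of all genes 0.01. In BAT 9 of the 10 fell, all but Vwf, against 24.8% of 14344 genes tested, and 7 fell by at least 2-fold, against 13.3%. Again none rose, while 25.0% of all genes rose and 18.2% rose by at least 2-fold. The median log2 fold change of the 10 genes in BAT was -1.55, and that of all genes -0.03. All 5 knockout libraries lay below all 5 Control libraries for 7 of the 10 genes in iWAT and for 8 in BAT, against 18.3% and 23.0% of all genes tested. Since the RNA is from whole tissue, fewer cells of a type and less RNA per cell cannot be told apart.

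**Figure D1:**
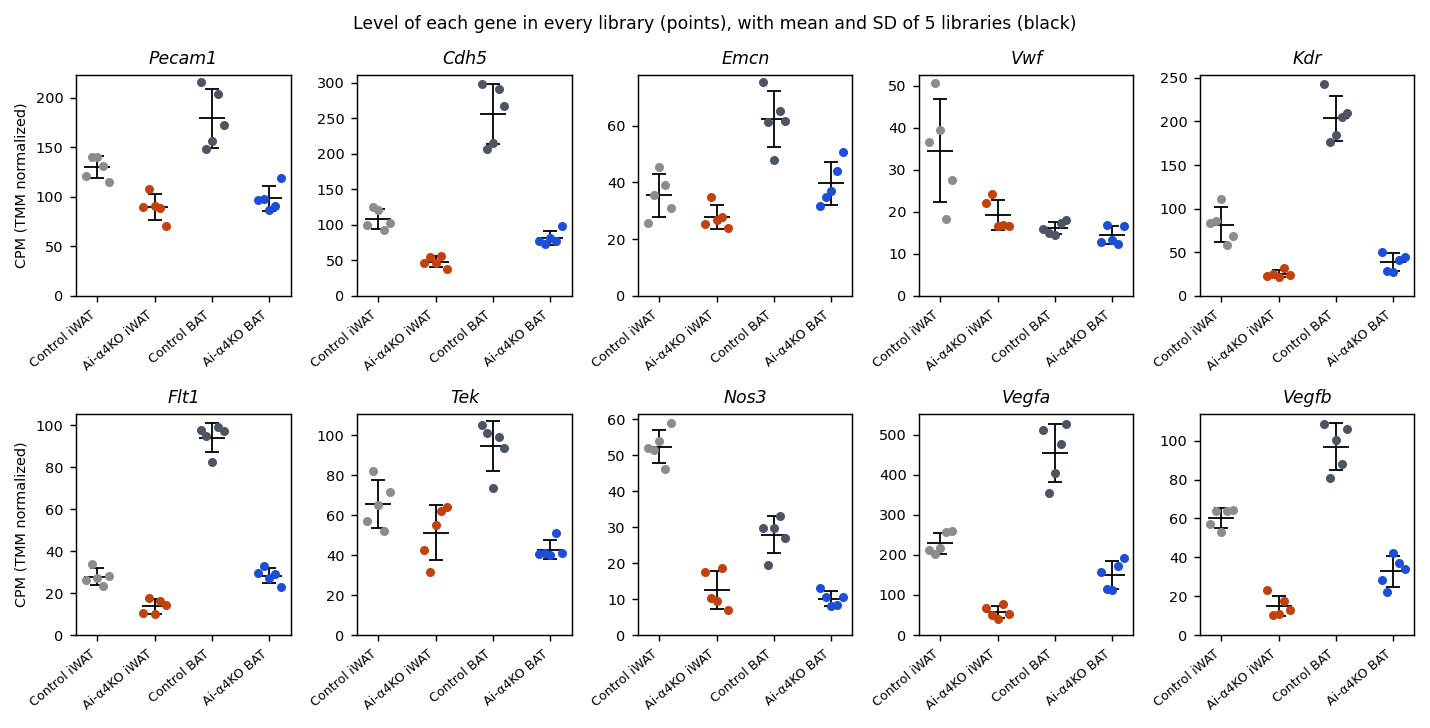
Level of each of the 10 genes in CPM (TMM normalized, linear axis from 0) in every library, with 1 point a library and the mean and SD of 5 libraries in black. The Control and Ai-α4KO points are separate for 7 genes in iWAT and 8 in BAT, Vwf points overlap in both tissues, and Flt1 is highest in Control BAT.

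Pecam1, the adhesion molecule CD31 at endothelial junctions, is on chromosome 11 from 106654213 to 106715281 (mm10). In Control iWAT libraries 1 to 5 it was at 121, 140.1, 140.5, 131 and 115 CPM, and in Ai-α4KO iWAT at 89.5, 108, 90.7, 88.8 and 70.8. Every knockout library was below every Control library, though the highest knockout value was close to the lowest Control value. The log2 fold change was -0.54 (standard error 0.12, adjusted p = 0.00250). In BAT the Control libraries held 216, 148, 156, 204 and 172 CPM and the knockout libraries 96.2, 98.2, 86.9, 90.9 and 119, again without overlap. Pecam1 there fell to 53.4% of Control (log2 fold change -0.90, standard error 0.14, adjusted p = 0.000133), and only Emcn of the 9 genes that fell had a smaller point estimate.

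Cdh5, the endothelial cadherin of adherens junctions, is on chromosome 8 from 104101625 to 104144502. It fell further than Pecam1 in both depots by point estimate. Its values in iWAT were 100.2, 126, 121, 92.4 and 102 CPM in Control and 45.6, 55.0, 45.7, 56.2 and 37.6 in knockout libraries, and the groups were well separated. This was 44.2% of Control (log2 fold change -1.18, standard error 0.13, adjusted p = 2.98e-05). In BAT the values were 299, 207, 216, 291 and 268 CPM in Control and 77.2, 73.7, 81.5, 77.8 and 98.2 after deletion. The lowest Control BAT library was more than 100 CPM above the highest knockout library, and the level was 31.1% of Control (log2 fold change -1.68, standard error 0.14, adjusted p = 1.19e-06).

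Emcn, the sialoglycoprotein endomucin found mainly on veins and capillaries, is on chromosome 3 from 137341078 to 137431069. In iWAT it did not pass the test. Control libraries held 25.8, 35.6, 45.5, 39.2 and 30.9 CPM and knockout libraries 25.4, 35.0, 26.6, 27.8 and 24.02, with overlapping groups (log2 fold change -0.36, standard error 0.16, adjusted p = 0.0775). Without Control libraries 1 and 4 the log2 fold change was -0.51, with an adjusted p of 0.0231. In BAT Emcn fell, from 75.4, 61.1, 47.9, 65.3 and 61.5 CPM to 31.6, 34.7, 37.0, 44.1 and 50.6, and the highest knockout library lay above the lowest Control library. The log2 fold change was -0.69 (standard error 0.16, adjusted p = 0.00222). With library size alone in place of TMM the log2 fold change was -0.43 (adjusted p = 0.0243). With a skeletal muscle marker score as a covariate it was -0.62, with a standard error of 0.25 (adjusted p = 0.0626).

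Vwf, the clotting factor that endothelial cells store and release, is on chromosome 6 from 125552948 to 125686679. It was the gene of the 10 that passed the test in neither depot. In iWAT the Control libraries spread widely, at 36.5, 50.7, 39.5, 18.3 and 27.6 CPM, and the knockout libraries held 22.1, 24.2, 16.6, 16.9 and 16.5 (log2 fold change -0.85, standard error 0.24, adjusted p = 0.0116). The overlap came from Control library 4, and without that library the log2 fold change was -1.01 with an adjusted p of 0.00138. Without Control libraries 1 and 4 it was -1.11 with an adjusted p of 0.00177. In BAT the Control values of 15.9, 14.98, 14.5, 17.4 and 17.998 CPM and the knockout values of 12.9, 16.8, 13.3, 12.4 and 16.5 lay in 1 range (log2 fold change -0.21, standard error 0.14, adjusted p = 0.209), and its sign depended on the scaling, at 0.060 with library size alone.

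Both VEGF receptors among the 10 genes fell in both depots. Kdr, the main signaling receptor for VEGF-A, is on chromosome 5 from 75933270 to 75978428. In iWAT it was at 83.5, 85.8, 111, 58.7 and 68.1 CPM in Control and 22.9, 24.5, 22.1, 32.2 and 24.3 in knockout libraries, or 30.8% of Control (log2 fold change -1.70, standard error 0.17, adjusted p = 1.64e-05). No knockout library reached the lowest Control library, and knockout library 4 lay above the other 4. In BAT it was at 243, 177, 184, 205 and 209.7 CPM in Control and 50.02, 28.9, 27.0, 41.6 and 44.8 after deletion. The level was 18.4% of Control, a 5.44-fold fall (log2 fold change -2.44, standard error 0.18, adjusted p = 4.27e-07) and the lowest point estimate of the 10 genes in either depot.

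Flt1, a VEGF receptor of high affinity and weak kinase activity that also exists as a soluble decoy, is on chromosome 5 from 147562196 to 147725988. The iWAT values were 26.3, 34.03, 27.3, 23.4 and 28.1 CPM in Control and 10.3, 17.8, 9.93, 16.4 and 14.3 in knockout libraries (log2 fold change -1.02, standard error 0.18, adjusted p = 0.000600). In BAT the Control values of 97.5, 94.6, 82.4, 98.9 and 97.2 CPM and the knockout values of 29.4, 32.8, 27.1, 28.9 and 22.9 were both narrow in spread. The groups were far apart in BAT, where Flt1 fell to 29.2% of Control (log2 fold change -1.77, standard error 0.11, adjusted p = 1.36e-07). Gene counts do not separate the membrane and soluble forms.

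Tek, the receptor Tie2 for angiopoietins, is on chromosome 4 from 94739289 to 94874976. Its iWAT groups overlapped, with 57.3, 82.1, 65.2, 52.0 and 71.4 CPM in Control and 42.7, 31.7, 55.3, 62.2 and 63.8 in knockout libraries (log2 fold change -0.37, standard error 0.19, adjusted p = 0.130). Without Control libraries 1 and 4 the log2 fold change was -0.60, with an adjusted p of 0.0393. In BAT Tek fell from 105, 101, 73.8, 99.3 and 93.6 CPM to 40.6, 40.8, 39.97, 51.1 and 40.9. These BAT groups did not overlap, and 4 of the 5 knockout libraries lay within 1 CPM of each other (log2 fold change -1.18, standard error 0.12, adjusted p = 3.99e-06).

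Nos3, the endothelial nitric oxide synthase that relaxes vessels through nitric oxide, is on chromosome 5 from 24364819 to 24384474. In iWAT the point estimates of Nos3, Vegfb and Vegfa were the lowest of the 10 and lay within 1 standard error of each other. Nos3 fell from 52.0, 51.4, 53.9, 46.1 and 58.9 CPM in Control to 17.6, 10.4, 9.40, 18.6 and 6.85. The knockout libraries differed among themselves by more than 2-fold, yet all lay far below Control, and the level was 23.9% of Control (log2 fold change -2.06, standard error 0.25, adjusted p = 5.33e-05). In BAT it was 29.9, 19.6, 29.9, 33.3 and 26.9 CPM in Control and 13.1, 10.5, 8.21, 8.40 and 10.6 after deletion. The BAT groups were again separate (log2 fold change -1.496, standard error 0.18, adjusted p = 1.54e-05).

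Both VEGF ligands fell in both depots. Vegfa, whose protein drives vessel growth and is on chromosome 17 from 46016993 to 46032377, was at 212, 203, 216, 256 and 259 CPM in the Control and at 68.3, 50.04, 38.9, 78.3 and 52.6 in the knockout libraries of iWAT, or 25.04% of Control (log2 fold change -1.997, standard error 0.18, adjusted p = 9.19e-06). In BAT it was at 512, 355, 404, 477 and 525 CPM in Control and 156, 115, 112, 173 and 193 after deletion, or 32.1% of Control (log2 fold change -1.64, standard error 0.18, adjusted p = 9.85e-06). The groups did not overlap in either depot.

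Vegfb, a ligand of Flt1 that is abundant in brown fat, heart and muscle, is on chromosome 19 from 6982472 to 6987651. In iWAT it was at 57.4, 64.0, 52.8, 63.6 and 64.5 CPM in Control and 23.2, 10.6, 10.9, 17.3 and 12.8 in knockout libraries (log2 fold change -2.02, standard error 0.21, adjusted p = 1.90e-05). Its BAT values were 109, 80.6, 100.5, 88.0 and 106 CPM in Control and 28.1, 22.2, 42.3, 37.0 and 34.2 in knockout libraries (log2 fold change -1.60, standard error 0.17, adjusted p = 8.47e-06). Knockout libraries were below every Control library in both depots. The difference between log2 Vegfa and log2 Vegfb was 1.92 ± 0.15 in the Control and 1.97 ± 0.28 in the knockout libraries of iWAT, and 2.22 ± 0.16 and 2.19 ± 0.45 in BAT (SD, n = 5 each, CPM scale).

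**Figure D2:**
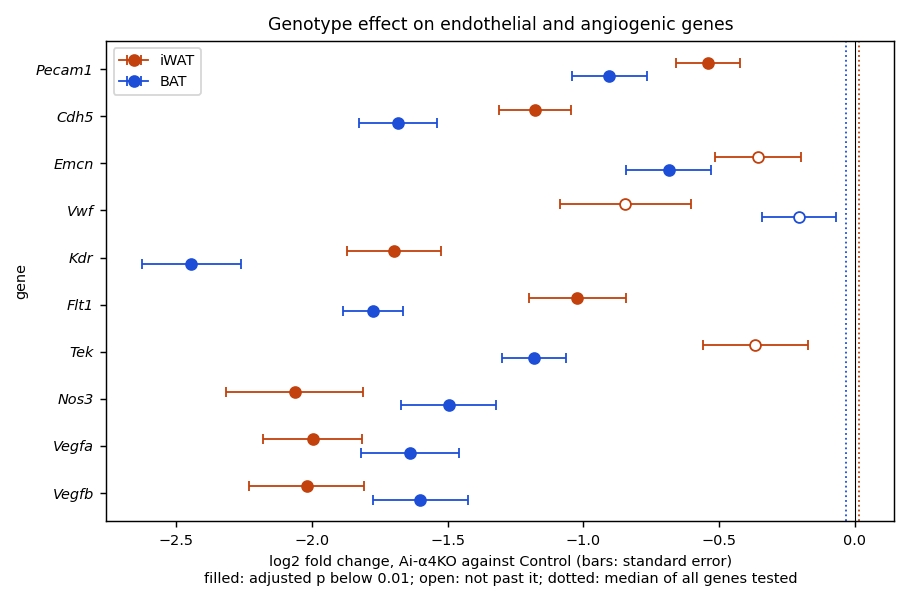
Log2 fold change of Ai-α4KO against Control for the 10 genes in iWAT and BAT, with standard errors as bars, filled points for an adjusted p below 0.01, open points for genes that did not pass, and dotted lines at the median of all genes tested. All 20 estimates lie below 0, and the lowest is Kdr in BAT at -2.44.

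Markers of adipocytes and macrophages moved with the genotype in both depots, and those of skeletal muscle in BAT, and the part of the adipocytes and macrophages in these results was not tested. Of all genes, 18.8% fell and 21.5% rose in iWAT, and 24.8% fell and 25.0% rose in BAT. Of the 8 adipocyte markers, 7 fell in iWAT (median log2 fold change -1.78) and 6 in BAT (median -1.77). On the log2 CPM scale, the level of Vegfa minus the mean of the adipocyte markers was -2.67 ± 0.22 in Control and -3.05 ± 0.14 in knockout libraries of iWAT, and -1.28 ± 0.18 in Control BAT and -1.27 ± 0.52 in Ai-α4KO BAT. All 7 macrophage markers rose in both depots, their summed level running in iWAT from 1131 to 1919 CPM in Control and from 7355 to 9897 in knockout libraries. In BAT the same sum ran from 228 to 514 CPM in Control and from 4233 to 6947 after deletion. Of the 5 skeletal muscle markers, 4 rose in BAT, where their sum ran from 731 to 7554 CPM in Control and from 10427 to 34655 in Ai-α4KO libraries. With the muscle marker score as a covariate, 7 of the 10 genes fell in BAT, against 13.7% of all genes tested, and Kdr was at a log2 fold change of -2.25 (adjusted p = 4.74e-05). Pecam1 did not pass in that fit, at -0.65 with a standard error of 0.20 (adjusted p = 0.0209), and neither did Emcn. The muscle marker sums did not overlap between the genotypes in BAT, so that fit could not fully separate muscle content from genotype. In iWAT none of the 5 muscle markers passed, and none was at an unadjusted p below 0.05 by edgeR's test or passed by DESeq2. Their sum was 6174 CPM in Control iWAT library 4 and 3400 in Ai-α4KO iWAT library 1, against at most 159 in the other 8 iWAT libraries. Without these 2 libraries 8 of the 10 genes fell in iWAT, the 7 above and Vwf (log2 fold change -1.06, adjusted p = 0.00163), against 19.5% of all genes tested. Without Control iWAT libraries 1 and 4, the same 8 genes fell, against 18.9% of all genes tested.

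The scaling of the libraries shifted all genes in 1 direction. With library size alone the median of all genes was 0.13 higher than 0 on the log2 scale in iWAT and 0.23 in BAT, and 67.9% of the called genes in BAT were higher after deletion, against 50.2% with TMM. In iWAT this share was 62.7% with library size alone and 53.3% with TMM. The number of the 10 genes that fell was then 6 in iWAT, without Pecam1 (log2 fold change -0.42, adjusted p = 0.01005), and 8 in BAT, without Emcn, against 15.4% and 15.8% of all genes tested.

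Whether the fall differed between the depots was examined with the genotype-by-tissue term of a fit to all 20 libraries. For this interaction none of the 10 genes passed at an adjusted p below 0.01, against 4.86% of the 15230 genes tested. At an unadjusted p below 0.05 edgeR's test had 4 of the 10 lower in BAT (Flt1, Tek, Kdr and Cdh5), against 13.5% of all genes, and 1 higher (Vwf), against 17.5%, and both DESeq2 and limma called none at the adjusted threshold. The lowest adjusted p was that of Flt1, whose log2 fold change was lower in BAT by -0.72 (standard error 0.21, adjusted p = 0.0260), followed by Tek at -0.79 (standard error 0.24, adjusted p = 0.0305). Kdr differed by -0.71 (adjusted p = 0.0651) and Cdh5 by -0.48 (adjusted p = 0.0929), also toward BAT. The estimates for Nos3 (0.60), Vegfa (0.39), Vegfb (0.45) and Vwf (0.67) had the opposite sign, and none passed the test. Tek fell in BAT and not in iWAT by the threshold, but the difference between the depots did not pass.

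In Control mice the depots differed in most of the 10 genes. Brown fat was higher in 6 (Flt1, Kdr, Cdh5, Vegfa, Emcn and Vegfb), against 16.4% of the 14260 genes tested, and lower in 2 (Vwf and Nos3), against 20.4%. Flt1 had the largest difference, at 27.8 ± 3.89 CPM in Control iWAT and 94.1 ± 6.74 in Control BAT, or 3.30-fold (log2 difference 1.72, standard error 0.11, adjusted p = 2.73e-06). Kdr was 2.44-fold higher in BAT (adjusted p = 0.000104) and Cdh5 2.31-fold higher (adjusted p = 4.89e-05), with no overlap of the libraries. Vegfa was at 229 ± 26.3 CPM in iWAT and 455 ± 72.8 in BAT (log2 difference 0.96, standard error 0.14, adjusted p = 0.000171). Emcn (log2 difference 0.78, adjusted p = 0.00197) and Vegfb (0.65, adjusted p = 0.000575) followed.

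Nos3 and Vwf ran against the other genes, since both were lower in brown fat. Nos3 was at 52.5 ± 4.62 CPM in Control iWAT and 27.9 ± 5.16 in Control BAT (log2 difference -0.94, standard error 0.14, adjusted p = 0.000258). Vwf was at 34.5 ± 12.3 CPM and 16.2 ± 1.49 (log2 difference -1.13, standard error 0.23, adjusted p = 0.00184), and without Control iWAT libraries 1 and 4 the difference was -1.30 (adjusted p = 0.000320). Pecam1 (log2 difference 0.43, adjusted p = 0.0136) and Tek (0.49, adjusted p = 0.0124) did not pass by edgeR's test, though the Pecam1 libraries did not overlap. DESeq2 called both higher in BAT (adjusted p = 0.00204 and 0.00315), against 20.7% of all genes. The Control libraries of this comparison are also those of the genotype comparisons, so the 2 sets of values are not independent. All 7 macrophage and all 5 fibroblast markers were lower in Control BAT (medians -2.57 and -1.16), against 20.4% of all genes. All 4 brown adipocyte markers were higher there, against 16.4%. The part of these cells in the depot difference was not tested. With the mean log2 level of the B cell markers added to the fit, Emcn was at a log2 difference of 0.67 (standard error 0.23, adjusted p = 0.0444) and Vegfb at 0.65 (standard error 0.16, adjusted p = 0.0114). With library size alone the median of all genes lay at -0.20, and 29.1% of the called genes were higher in BAT, against 44.5% with TMM.

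**Figure D3:**
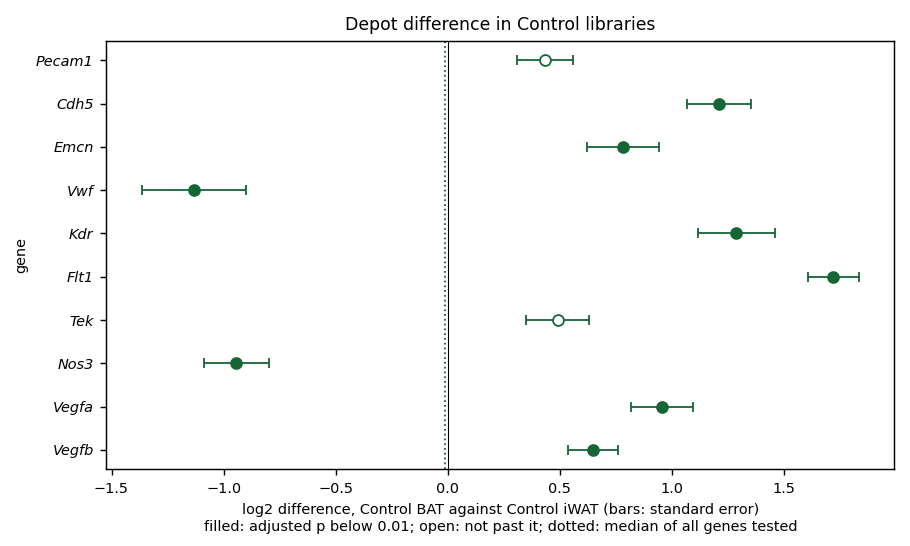
Log2 difference of Control BAT against Control iWAT for the 10 genes, with standard errors as bars, filled points for an adjusted p below 0.01, open points for genes that did not pass, and a dotted line at the median of all genes tested. Of the points, 8 lie above 0, with Flt1 the highest at 1.72, and Vwf and Nos3 lie below 0.

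Levels of different genes were compared as FPKM, the deposited values, which are scaled for transcript length and library total. In Control iWAT the order was Vegfa (49.4 ± 6.76 FPKM), Vegfb (42.5 ± 5.47), Pecam1 (34.9 ± 2.80), Cdh5 (24.3 ± 2.80), Emcn (21.6 ± 3.70), Kdr (13.3 ± 2.62), Tek (12.5 ± 2.34), Nos3 (11.4 ± 1.04), Flt1 (3.99 ± 0.613) and Vwf (3.50 ± 1.25). Neighbours whose libraries did not overlap were Pecam1 and Cdh5, Emcn and Kdr, and Nos3 and Flt1, and the other neighbours did not differ beyond their spread. In Ai-α4KO iWAT Pecam1 came first at 26.3 ± 3.80 FPKM and Emcn next at 18.6 ± 2.79, ahead of Vegfa at 13.6 ± 3.78 and Vegfb at 11.5 ± 4.25. Only Tek (10.6 ± 2.83) and Kdr (4.53 ± 0.734) were neighbours without overlap there. The ligands led the order in Control iWAT and held places 3 and 5 after deletion.

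In Control BAT Vegfa was at 84.9 ± 16.1 FPKM, Vegfb at 58.7 ± 8.38 and Cdh5 at 50.1 ± 9.78, ahead of Pecam1 at 41.9 ± 8.04. Steps without overlap were from Kdr (29.1 ± 4.41) to Tek (15.6 ± 2.22), from Flt1 (11.6 ± 1.12) to Nos3 (5.27 ± 1.09), and from Nos3 to Vwf (1.42 ± 0.176). After deletion Vegfa remained first in BAT by its mean (32.6 ± 7.31 FPKM), and Pecam1 (26.9 ± 3.97), Emcn (24.6 ± 4.27), Vegfb (23.1 ± 4.75) and Cdh5 (18.7 ± 2.27) followed, each overlapping its neighbours. Breaks lay between Cdh5 and Tek (8.24 ± 0.576) and between Flt1 (4.10 ± 0.647) and Nos3 (2.26 ± 0.532). Vwf was last by its mean in all 4 groups, and its libraries overlapped those of Flt1 in iWAT of both genotypes.

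The 10 genes were set beside 24 other endothelial genes, among them claudin 5 (Cldn5), the orphan receptor Tie1 and the endothelial transcription factors Erg and Sox7. In iWAT 15 of the 24 fell, against 18.8% of all genes, and 1, Fli1, rose, against 21.5%, and the median log2 fold change was -0.77. In BAT 17 fell, against 24.8% of all genes, and 2 rose, Cd34 and Plvap, against 25.0%, with a median of -1.11. The smallest adjusted p-values in iWAT were those of Gpihbp1, which carries lipoprotein lipase to the capillary lumen (log2 fold change -2.04, standard error 0.23), Erg (-1.10, standard error 0.14) and Ushbp1 (-1.72, standard error 0.23). In BAT they were those of the phosphatase Ptprb (-1.56, standard error 0.12), Gpihbp1 (-2.06, standard error 0.17) and Erg (-1.74, standard error 0.17). Cd34, which stromal progenitors also express, was at 97.7 CPM in Control BAT and 209 in Ai-α4KO BAT (log2 fold change 1.06, adjusted p = 0.000132). In Control 13 of the 24 were higher in BAT than in iWAT and 2 were lower, against 16.4% and 20.4% of all genes.

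**Figure D4:**
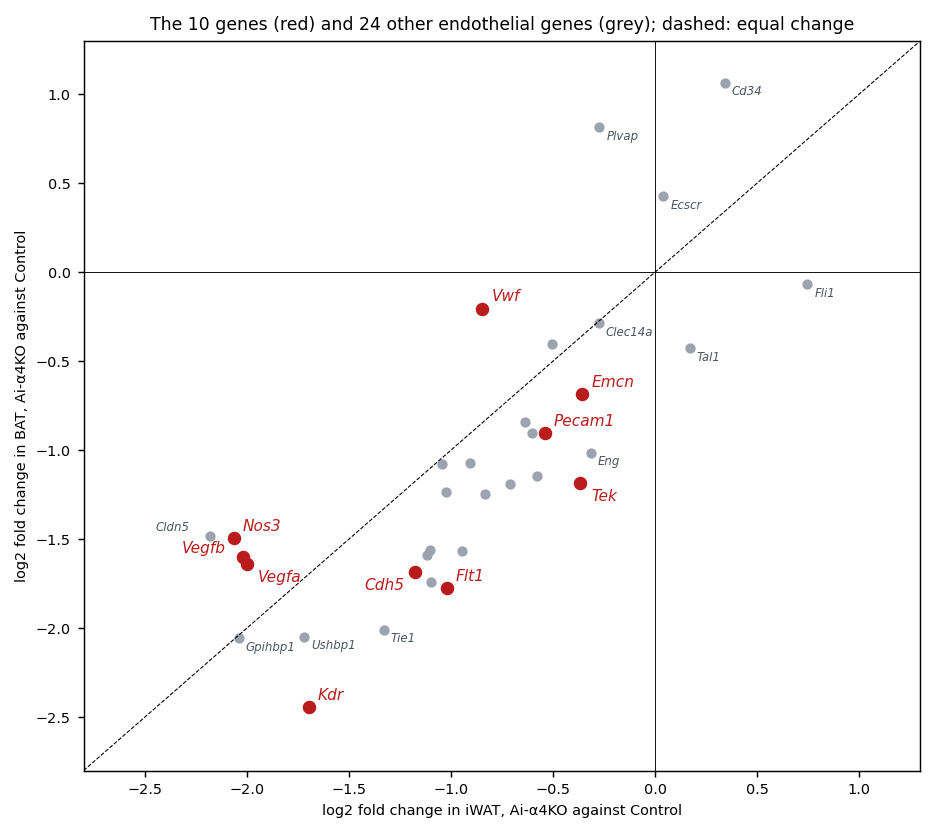
Log2 fold change of Ai-α4KO against Control in iWAT (x axis) and in BAT (y axis) for the 10 genes in red and 24 other endothelial genes in grey, with a dashed line of equal change. All 10 red points lie below 0 on both axes, Kdr is the lowest in BAT, and the points right of 0 are Cd34, Fli1, Ecscr and Tal1.

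Relative to these other endothelial genes the 10 genes did not all move alike. The comparison was chosen after the values were seen and is given without a test, as the log2 CPM of a gene minus the mean log2 CPM of the 24 genes. Kdr was lower against them after the deletion in both depots, at 1.61 ± 0.22 in Control and 0.67 ± 0.24 in Ai-α4KO iWAT and at 2.34 ± 0.16 and 0.80 ± 0.39 in BAT (SD, n = 5 each), and the groups did not overlap. Cdh5 showed the same, at 2.04 ± 0.15 and 1.60 ± 0.18 in iWAT and 2.66 ± 0.17 and 1.92 ± 0.05 in BAT. Pecam1 stayed close to the other endothelial genes, at 2.31 ± 0.11 and 2.50 ± 0.15 in iWAT and 2.15 ± 0.14 and 2.18 ± 0.09 in BAT, with overlapping groups. Nos3 went from 1.003 ± 0.20 to -0.42 ± 0.53 in iWAT without overlap and from -0.54 ± 0.35 to -1.10 ± 0.33 in BAT with overlap. Flt1 was separate only in BAT (1.23 ± 0.21 and 0.38 ± 0.35), and Vwf was relatively higher after deletion there (-1.31 ± 0.26 and -0.59 ± 0.19). Groups overlapped in both depots for Tek, and for Emcn, which was at 0.41 ± 0.30 and 0.81 ± 0.17 in iWAT and at 0.62 ± 0.08 and 0.86 ± 0.15 in BAT. Vegfa was relatively lower after the deletion without overlap, at 3.13 ± 0.30 and 1.84 ± 0.36 in iWAT and at 3.49 ± 0.24 and 2.77 ± 0.28 in BAT. The same held for Vegfb, at 1.21 ± 0.27 and -0.13 ± 0.44 in iWAT and at 1.27 ± 0.30 and 0.57 ± 0.36 in BAT. Against Cdh5 alone, Emcn was higher after the deletion in both depots, at -1.63 ± 0.30 and -0.79 ± 0.15 in iWAT and at -2.04 ± 0.17 and -1.06 ± 0.18 in BAT, without overlap.

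Vessel subtypes were read from short marker lists, whose counts stand beside 18.8% of all genes fallen and 21.5% risen in iWAT and 24.8% and 25.0% in BAT. Of the 4 capillary markers, 3 fell in iWAT and 4 in BAT (median log2 fold changes -1.33 and -1.72), with Rgcc at -1.71 and -1.75. The list held Rgcc, Car4, Cd36 and Gpihbp1, the last also among the other endothelial genes above. In Control iWAT the median of the list's summed level was 4369 CPM, and Gpihbp1 averaged 145. Adipocyte markers fell as well, and their part in this list was not tested. Of the 5 arterial markers, none passed in iWAT (0 at an adjusted p below 0.01 by edgeR's test, 4 at an unadjusted p below 0.05, against 59.7% of all genes, with a median of -0.63, and 3 by DESeq2) and 1, Efnb2, fell in BAT. Among the 4 venous markers Selp and Ackr1 rose and Ephb4 fell in both depots. Of the 6 lymphatic markers, Pdpn rose in iWAT, and Pdpn and Lyve1 rose in BAT, both of which other cells express, while Prox1, the lymphatic transcription factor, was below the filter in iWAT and did not pass in BAT (adjusted p = 0.0153). Of the 9 markers of mural cells, the pericytes and smooth muscle around vessels, 5 fell in each depot, with Rgs5 at -0.99 in iWAT and -2.05 in BAT.

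The remaining VEGF and angiopoietin genes were mixed in direction. Of 11 listed symbols, 10 were in the table, and the other, Vegfd, is the newer name of the listed Figf. In iWAT Tie1 (log2 fold change -1.33) and the ligand Angpt1 (-1.12) fell, the co-receptor Nrp2 rose (0.75), and 7 of the 10 did not pass, against 18.8% of all genes fallen and 21.5% risen. In BAT Tie1 (-2.01), the lymphatic receptor Flt4 (-1.505), Angpt1 (-1.17) and Nrp2 (-0.84) fell and Figf, encoding VEGF-D, rose (0.89), against 24.8% and 25.0%. Nrp2 was at 37.3 CPM in Control iWAT, 62.8 in Ai-α4KO iWAT, 132 in Control BAT and 76.2 in Ai-α4KO BAT, and its interaction of genotype and tissue was -1.55 (adjusted p = 0.000372). The median log2 fold change of the list was -0.06 in iWAT and -0.44 in BAT. In Control the co-receptor Nrp2, Tie1 and Flt4 were higher in BAT, and Figf and Pgf were lower, against 16.4% and 20.4% of all genes.

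Tip cell and Notch genes, which govern sprouting and branching of vessels, moved in both directions. Of 21 tested in iWAT, 6 fell and 2 rose, against 18.8% and 21.5% of all genes, and of 20 tested in BAT, 7 fell and 4 rose, against 24.8% and 25.0%. The Notch ligand Dll4 fell from 8.26 to 1.71 CPM in iWAT (log2 fold change -2.27, standard error 0.27) and from 25.3 to 4.36 in BAT (-2.58, standard error 0.30). The ligand Jag1 (log2 fold changes -1.03 in iWAT and -0.83 in BAT) and the receptor Notch4 (-1.51 and -1.80) fell in both depots. The chemokine Cxcl12 rose in both (1.18 and 0.81). Its receptor Cxcr4 rose in BAT (2.43) and was at 0.42 in iWAT, where it did not pass (adjusted p = 0.424), and its interaction of genotype and tissue did not pass (adjusted p = 0.0159). List medians were -0.60 in iWAT and -0.51 in BAT.

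Beside Nos3, the list of nitric oxide and vessel tone genes had 13 of its 15 symbols in the table. In iWAT 2 of 12 tested fell, the inducible synthase Nos2 (log2 fold change -2.36) and the caveolar protein Cav1 (-0.73), and the endothelin receptor Ednrb rose (1.502), against 18.8% of all genes fallen and 21.5% risen. In BAT 5 of 13 fell, among them both chains of the nitric oxide receptor guanylate cyclase, Gucy1a3 (-1.26) and Gucy1b3 (-1.01), and 3 rose, with Ednrb at 1.09, against 24.8% and 25.0% of all genes. Medians were -0.41 and 0.10.

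Vegfa is a textbook target of the hypoxia-inducible factors, and 19 genes of that pathway were read beside it. In iWAT 9 fell and 4 rose (median log2 fold change -0.27), against 18.8% and 21.5% of all genes, and in BAT 6 fell and 5 rose (median -0.14), against 24.8% and 25.0%. Falls were largest in significance for Pdk1 (-2.35), Bnip3 (-1.67) and the factor Epas1 (-1.39) in iWAT, and for Epas1 (-1.57), Pfkfb3 (-2.06) and Pdk1 (-1.57) in BAT. Hif1a rose in both depots (1.55 in iWAT and 0.99 in BAT). Car9, a carbonic anhydrase induced by low oxygen, went from 0.375 CPM in Control to 2.39 in knockout libraries of iWAT, and stood at 0.189 and 2.07 in BAT, and it rose in both. Its Control levels were near the floor, and it was below the filter where only Control libraries were compared. It thus entered the genotype tests through its knockout libraries. The other 3 genes that rose in BAT were Egln3 (1.31), the glucose transporter Slc2a1 (1.29) and Ankrd37 (2.26). In iWAT these did not pass, at -0.23, 0.69 and 1.19. Their interactions of genotype and tissue did not pass either (adjusted p = 0.0164, 0.188 and 0.289). The other genes that rose in iWAT were P4ha1 (0.59) and Kdm3a (0.51), neither of which passed in BAT.

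Endothelial adhesion genes, several of which capture leukocytes at the vessel wall, moved in both directions. Of 7 tested, 4 rose in iWAT, namely Icam1 (log2 fold change 1.94), Selp (1.44), Sele (2.10) and Vcam1 (1.83), and the junction gene Jam2 fell (-0.78), against 21.5% of all genes risen and 18.8% fallen. Of 6 tested in BAT, Selp (3.33), Icam1 (2.84) and Vcam1 (2.76) rose, F11r (-1.37) and Jam2 (-1.49) fell, and Sele did not pass (adjusted p = 0.0188), against 25.0% of all genes risen and 24.8% fallen. Selp was at 3.89 and 10.6 CPM in Control and Ai-α4KO iWAT and at 1.05 and 10.8 in BAT. Its interaction of genotype and tissue was 1.92 (adjusted p = 0.00117). Platelets and macrophages also express some of these genes, and of 5 platelet and megakaryocyte markers Pf4 and Ppbp rose in both depots while Itga2b did not pass in either. The medians of the adhesion list were 1.44 and 2.19.

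Within groups the 8 endothelial genes (all but the ligands) varied together only in part. Over the 20 libraries, after subtracting each group's mean log2 CPM, Pearson's r over their 28 pairs ran from -0.23 to 0.82 with a median of 0.30, and the highest was that of Pecam1 and Cdh5. The points share libraries, depth and TMM factors, and r is a description. Vegfa had a median r of 0.27 with the 8 genes and Vegfb of 0.01. Genes whose deviations were most like each of the 10 were searched among the 15230 tested. The 3 highest r for Pecam1 were those of Pde9a (0.86), Esam (0.82) and Cd93 (0.80), the latter 2 endothelial genes, and for Emcn those of Sox7 (0.87), Cox4i1 (0.83) and Foxc1 (0.82). For Cdh5 they were those of Gm14391, which has 2 entries in the table (0.83 and 0.79), and Slx1b (0.77). Vwf was most like Rasgef1c (0.78), Hdc (0.76) and Mrgprg (0.74). Among the receptors, Kdr was most like Gm9899 (0.86), Pck1 (0.78) and Zfp629 (0.76), Flt1 like Zfp366 (0.80), Zfp407 (0.78) and Son (0.76), and Tek like Pros1, Reck and Plxdc2 (0.87 each). Nos3 was most like Pcx (0.86), Ltbp3 (0.83) and Pnpla2 (0.82). For the ligands the genes were Gsto2 (0.85), Mum1 (0.84) and 5930403L14Rik (0.84) beside Vegfa, and Popdc2 (0.90), Mettl24 (0.88) and Igf2 (0.87) beside Vegfb.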

How the data were processed

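Stranded mRNA libraries of iWAT and BAT were read as pairs of 150 bases. The submitters' processing notes name bcl2fastq 2, STAR 2.5.3a and the build mm10, and the counting tool and annotation are not given in the sources used here. The authors deposited an expected count, without normalization, and an FPKM value, scaled for transcript length and library total, for each gene and library. Of the nonzero counts, 76.6% were exactly whole as deposited, with no tolerance. Columns of GO and KEGG terms were not used, and 0 columns of values lacked a sample.

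Analysis was in R 4.3.3 on the rounded counts. Tests used edgeR 4.0.16 (filterByExpr, TMM, glmQLFit and glmQLFTest), within each tissue, within Control for the depots, and over all 20 libraries for the interaction. CPM values of libraries used TMM factors over all 20 libraries, and log2 values a prior count of 2. Groups were called non-overlapping where every library of one was above every library of the other. Genes were called at an adjusted p below 0.01, with or without a fold of 2. The study names this threshold and, in another place, 0.05, both with that fold. Alternatives were DESeq2 1.42.0, limma 3.58.1 on log2(FPKM + 1) and log2(FPKM + 0.1), other scalings and filters, an adjusted p of 0.05, marker scores as covariates, one fit of all libraries, a replicate block, and leaving out each library. Leaving out Control iWAT libraries 1 and 4 together, or Control iWAT library 4 with Ai-α4KO iWAT library 1, was chosen after seeing the data.

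The 10 genes, the gene lists and the marker lists were chosen with earlier results of these data known. Named were all 10 genes, the 3 genes of smallest adjusted p of a pathway list in each tissue, and the 3 genes most like each of the 10. Other names were chosen after their values were seen. Vegfd (listed as Figf), Gucy1a1 and Gucy1b1 (as Gucy1a3 and Gucy1b3) were read under older symbols, and Adgre1 as Emr1. Over the 40 pairs of libraries within groups, the chi-square per gene was 29.9 to 282, so no library was counted as a duplicate. Promoters are from RefSeq on GRCm38.p6. The 10 genes had 194 to 13524 counts a library, and counting error was not separated from the spread between libraries.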

Additional observations from a re-analysis of the deposited data

Results flagged for a closer look

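Among the 40 sets of 5 libraries (10 genes in 4 groups), 3 held a library set apart from the other 4 by Dixon's test, and chance flags about 1 in 20 sets. Kdr was at 32.2 CPM in Ai-α4KO iWAT library 4, the highest of its group, and the next value was 24.5. Flt1 was at 82.4 CPM in Control BAT library 3, the lowest of its group, and the next was 94.6. Tek was at 51.1 CPM in Ai-α4KO BAT library 4, the highest of its group, and the next was 40.9. Each of these genes fell in that tissue, and each of the 3 libraries lay on its own group's side of the other genotype.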

How the results depend on the processing

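Of 940 values of the 10 genes under the alternatives, 908 kept their direction and their side of the threshold, 11 lost the call, 18 gained it and 3 reversed. All 3 reversals were of Vwf in BAT, at 0.060 with library size alone, 0.034 with limma on log2(FPKM + 1) and 0.051 with limma on log2(FPKM + 0.1), and none was called. At an adjusted p below 0.05, 2 genes (Flt1 and Tek) fell more in BAT than in iWAT, against 5.68% of all genes. Libraries with the same number were not paired, since the labels state no pairing. Correlations of their deviations ran from -0.45 to 0.24, which cannot tell whether the same mice gave both tissues. With the replicate block 1 gene (Nos3) was lower in Control BAT than in Control iWAT and 5 were higher, against 18.3% and 14.8% of all genes, Vwf being at -1.05 (adjusted p = 0.0105) and Emcn at 0.79 (0.0120). It called 8 of the 10 genes fallen in iWAT and 9 in BAT, against 17.1% and 20.7% of all genes. Leaving out 1 library gave 7 to 8 fallen in iWAT, 9 in BAT, and 6 to 7 higher in Control BAT, against at most 20.4%, 24.4% and 16.4% of all genes. Pecam1 in that comparison passed without Control BAT library 2 (adjusted p = 0.00528), and Tek without Control iWAT library 2 (0.00457) or Control BAT library 3 (0.00690). DESeq2 also called Vwf in iWAT (0.00130), and called Pecam1 (0.00204) and Tek (0.00315) higher in Control BAT with all libraries kept. The cause of these changes was not tested.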

Other observations

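Other cell markers moved with the genotype beside the vessel genes. Of all genes, 21.5% rose and 18.8% fell in iWAT, and 25.0% rose and 24.8% fell in BAT. Of 5 neutrophil markers 4 rose in iWAT and 5 in BAT, with Csf3r, the receptor for the neutrophil growth factor, at log2 fold changes of 2.68 and 4.54. Of 4 T cell markers none passed edgeR's test in iWAT (1 at an unadjusted p below 0.05, and 1, Cd3e, by DESeq2), where Control libraries 1 and 4 summed to 119 and 147 CPM and the other 3 Control libraries to at most 8.53, and 3 rose in BAT (Cd2, Cd3d and Cd3g). Of 5 fibroblast markers none passed in iWAT (3 at an unadjusted p below 0.05, and 1, Lum, by DESeq2) and 4 rose in BAT, among them the collagen gene Col3a1 at 1.66. Of 4 brown adipocyte markers 3 fell in iWAT and Ucp1 and Cidea fell in BAT, with Ucp1, the uncoupling protein, at -2.39 in BAT. Of 5 B cell markers 1 (Cd79a) fell in iWAT, with the same 2 Control libraries high, and 1 (Cd79b) rose in BAT. With the mean log2 level of the B cell markers as a covariate, 8 of the 10 vessel genes fell in iWAT, against 16.6% of all genes, with Kdr at -1.81 (adjusted p = 2.60e-05). The part of the other cells in the vessel genes was not tested.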
